A study of Drosophila melanogaster with 4 samples.

Results

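The mitochondrial ribosomal protein genes of Drosophila melanogaster were examined in mutant testes. They are the genes whose symbol in the deposited expression tables begins with mRpL, for the large subunit of the mitochondrial ribosome, or mRpS, for the small subunit. The rule uses the symbol alone and no measured value, and it finds 72 of 14664 genes, 46 named for the large subunit and 26 for the small. RNA was sequenced from testes of the genotype labelled Phf7-bam- and from testes of the genotype labelled bam-, both taken within 3 days of eclosion, with 2 biological replicate libraries per genotype. All 4 libraries therefore carry the bam mutation, and the genotypes differ in Phf7. Neither the alleles nor the number of flies per library is given in the labels, and no wild-type testis is among the samples analysed here, so every comparison is between mutant testes.

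The mitochondrial ribosome translates the few messenger RNAs made from mitochondrial DNA, which in animals encode subunits of the oxidative phosphorylation complexes. Its ribosomal RNAs come from mitochondrial DNA, whereas its proteins are encoded in the nucleus, made in the cytoplasm and imported. Many of these proteins keep the name and place of a bacterial ribosomal protein, and others exist in mitochondria alone. In the testis, bam is needed for spermatogonia to leave their mitotic divisions, so that mutant testes accumulate cells of early germline stages. The product of Phf7 is a PHD finger protein that promotes male identity of the germline. The large mitochondrial remodelling of the fly male germline, in which mitochondria fuse into the nebenkern, belongs to spermatids, a later stage.

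Values are FPKM, a level per gene in sequenced fragments, scaled to transcript length and library size. Phf7 itself had 18.8 and 22.9 FPKM in Phf7-bam- testes, against 173 and 152 FPKM in bam- testes, and fell by 2.91 on the log2 scale (limma adjusted p = 0.00706). The 5 germline markers vas, nos, bam, aub and piwi summed to 571 and 662 FPKM in Phf7-bam- testes and to 539 and 513 FPKM in bam- testes. Of these 4 had a positive log2 difference, with a median of 0.18 over the 5, 3 separated the genotypes and limma called 0. The exception in sign was vas, which overlapped, with a difference of -0.0034. It had 173.4 and 186.2 FPKM in Phf7-bam- testes and 188.0 and 172.5 FPKM in bam- testes. Of the 8965 genes with a mean of at least 1 FPKM, 57.4% had a positive difference, and their median was 0.031. In 20.5% both Phf7-bam- libraries lay above both bam- libraries, as in nos, aub and piwi. The part of the germline markers' differences in the values below was not tested. The spermatid gene Mst87F was at no more than 3.17 FPKM in any library. Summed FPKM lay between 650127 and 662056 per library. The 3 accessory gland markers Acp26Aa, Acp36DE and Acp70A summed to 698 and 12.2 FPKM in the Phf7-bam- libraries, replicate 1 first, and to 3.53 and 312 FPKM in the bam- libraries, with Acp70A listed at 0 in bam- replicate 1. In bulk testes, fewer cells of a type and less RNA per cell cannot be told apart.

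The mitochondrial ribosomal protein genes were expressed at moderate levels in both genotypes. The median member had 35.2 and 41.8 FPKM in the Phf7-bam- libraries, against 38.1 and 38.2 FPKM in the bam- libraries. The median of the 8965 genes with a mean of at least 1 FPKM, which were the genes tested, was 15.95 and 17.7 FPKM in Phf7-bam- testes and 16.4 and 16.6 FPKM in bam- testes. Of the 72 members 71 passed this filter. Only mRpL34, listed at 0 in every library, did not. Mean levels over the 4 libraries ran from 15.7 to 113.5 FPKM among the 71, and the upper quartile, 47.1 FPKM, was 1.59 times the lower quartile, 29.6 FPKM. The same ratio was 5.83 over all tested genes, 1.86 over cytoplasmic ribosomal proteins and 1.69 over mitochondrial tRNA synthetases. Summed over the members, FPKM came to 2769 and 3320 in the Phf7-bam- libraries and to 2880 and 2825 in the bam- libraries, or 0.423% and 0.501% against 0.443% and 0.431% of each library's summed FPKM. Without mRpL9, listed above 0 in Phf7-bam- replicate 2 alone, the sum in that library was 3252 FPKM, or 0.491%.

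The 5 highest members all belong to the large subunit. mRpL12 (dm3, 3L, 8949892 to 8950684), which forms the flexible stalk that recruits translation factors, had 108.4 and 130.3 FPKM in Phf7-bam- testes, against 108.0 and 107.1 FPKM in bam- testes. mRpL13 (2L, 18855124 to 18859212), a protein shared with bacteria, had 96.9 and 100.4 FPKM in Phf7-bam- testes and 94.9 and 92.4 FPKM in bam- testes. Both genes lay somewhat above the bam- libraries in each Phf7-bam- library, by 0.14 (SE 0.13) and 0.075 (SE 0.10) on the log2 scale, and neither passed the test. The other 3 are proteins of mitochondria alone. mRpL55 had 82.1 and 100.4 FPKM in Phf7-bam- testes and 92.2 and 89.0 FPKM in bam- testes, and its genotypes overlapped. mRpL50 had 82.5 and 100.1 FPKM in Phf7-bam- testes and 82.3 and 86.3 FPKM in bam- testes, with the lower Phf7-bam- library between the bam- libraries. mRpL53 had 73.9 and 96.9 FPKM in Phf7-bam- testes and 71.4 and 70.7 FPKM in bam- testes, with no overlap and a log2 difference of 0.25 (SE 0.16, limma adjusted p = 0.906). All 1471 bp of the mRpL53 locus lie within that of AGO1, and the part of AGO1 reads in these values was not tested.

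The highest small subunit gene, mRpS16, had 60.4 and 71.0 FPKM in Phf7-bam- testes and 60.6 and 66.0 FPKM in bam- testes. At the other end stood mRpL54, mRpS28 and mRpL43, with 13.2 to 21.8 FPKM in any library. mRpL43 had 16.6 and 21.8 FPKM in Phf7-bam- testes and 17.6 and 19.5 FPKM in bam- testes, and its genotypes overlapped. Neighbours in the order of levels mostly lay closer to each other than the libraries of 1 genotype did to each other, as the plot of levels by library shows. The order itself was nearly the same in both genotypes: across 70 members, leaving out the genes listed at 0, the genotype means had a Spearman rho of 0.967, beside 0.946 between the Phf7-bam- libraries and 0.943 between the bam- libraries. All these points share the length scaling of each gene. The first rho is between means of 2 libraries and the others are between single libraries, so they are not directly comparable.

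**Figure D1:**
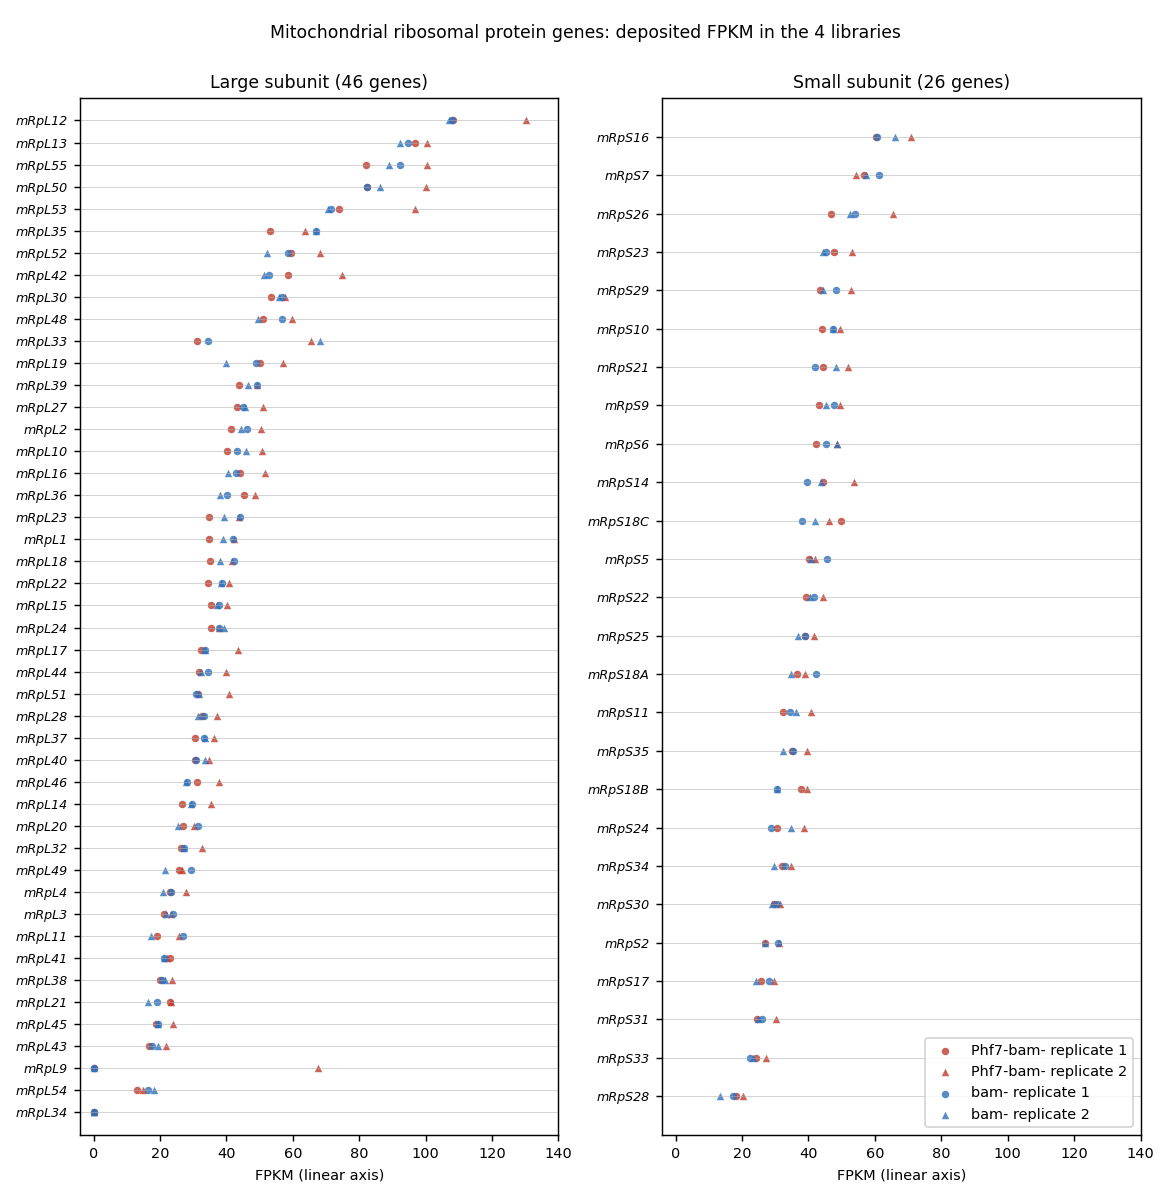
Deposited FPKM of each of the 72 mitochondrial ribosomal protein genes (rows, ordered by mean within each subunit) in the 4 libraries, with Phf7-bam- in red and bam- in blue, circles for replicate 1 and triangles for replicate 2. Most genes lie between the quartiles of 29.6 and 47.1 FPKM or close to them, with the colours interleaved, mRpL12 is highest, mRpL33 splits by replicate number, mRpL9 is above 0 in Phf7-bam- replicate 2 only, and mRpL34 is at 0 throughout.

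No mitochondrial ribosomal protein gene passed the test of a difference between the genotypes. The test was limma on log2(FPKM + 1), two-sided, with Benjamini-Hochberg adjustment over all 8965 tested genes and a threshold of 0.05. It called 0 of 71 members higher and 0 lower in Phf7-bam- testes, against 0.123% and 0.112% of all tested genes (0.234% in either direction), and the lowest adjusted p of a member was 0.671. With robust moderation of the variances limma called 3.42% of all tested genes, 2.42% higher and 1.0% lower, and again 0 members, with a lowest adjusted p of 0.304. At an unadjusted p under 0.05 there were 2 members, mRpL21 and mRpS18B, or 2.82%, both higher in Phf7-bam- testes, against 6.13% of all tested genes, with 3.99% higher. With a background this low, an absence of calls does not set the members apart, and a p above the threshold does not show that the genotypes were equal.

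The intervals describe the uncertainty of each gene taken by itself, from 2 libraries per genotype, and do not hold for all members at once. The 95% interval of the log2 difference lay within 1 in either direction for 69 of 71 members, the exceptions being mRpL33 and mRpL9, and its median reach to either side of the estimate was 0.35. The point estimates were smaller still: 61 members, or 85.9%, had a difference under 0.25 in size, against 78.1% of all tested genes. The median difference was 0.054 over the members and 0.031 over all tested genes, on the log2(FPKM + 1) scale and as Phf7-bam- minus bam-. The difference was positive in 53 of 71 members, 74.7% against 57.4% of all tested genes. Both shares moved with the scaling. With libraries set to equal medians 45 members were positive, 63.4% against 51.1% of all tested genes. After quantile normalization 43 were, 60.6% against 43.9%. Without Phf7-bam- replicate 2 the count was 23, 32.4% against 36.2%, where the members' median was -0.060 and that of all tested genes -0.059. Without Phf7-bam- replicate 1 it was 66, 93.0% against 72.6%, with a median of 0.18 against 0.115. The sign of the members' median thus differed between the Phf7-bam- libraries.

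Both Phf7-bam- libraries lay above both bam- libraries in 17 members, or 23.9%, where 20.5% of all tested genes did. Both lay below in 4 members, or 5.63%, where 14.0% of all tested genes did, and the genotypes overlapped in the other 50. The higher share is near the background and the lower share is below it.

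**Figure D2:**
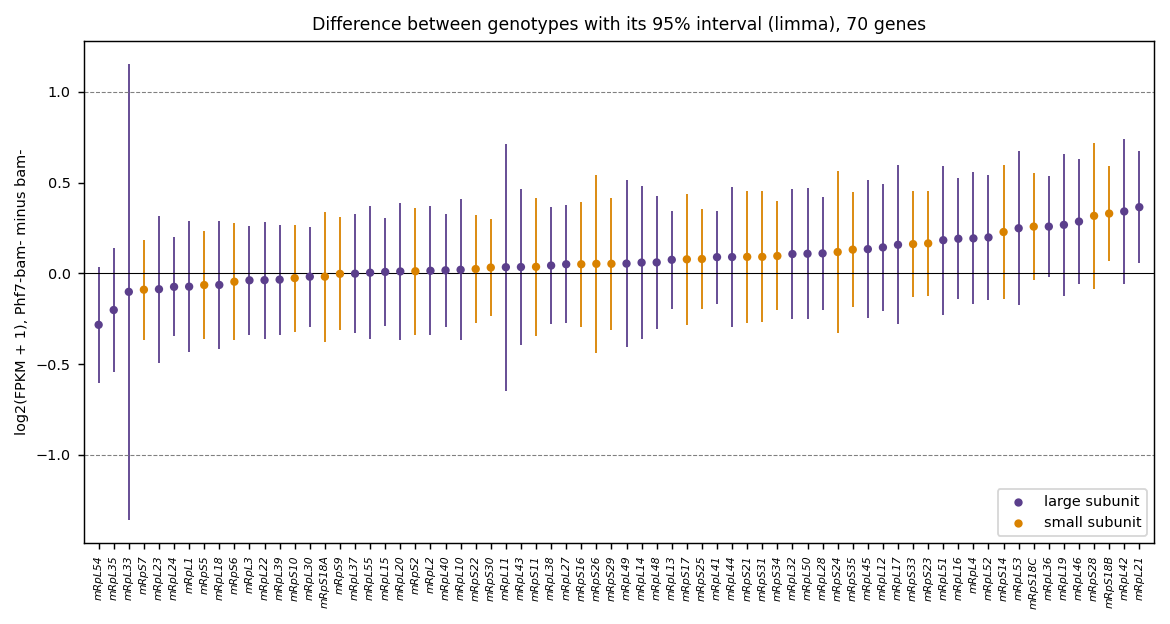
Log2 difference, Phf7-bam- minus bam-, with its 95% interval from limma, for 70 mitochondrial ribosomal protein genes ordered by size, leaving out mRpL9 and mRpL34 for their listed zeros; purple marks the large and orange the small subunit, and dashed lines stand at 1 and -1. All intervals but that of mRpL33 lie within the dashed lines, and only those of mRpS18B and mRpL21 leave out 0.

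mRpL21 and mRpS18B had the smallest p-values. mRpL21 (dm3, 3L, 19247334 to 19248157), a large subunit protein shared with bacteria, had 23.0 and 23.4 FPKM in Phf7-bam- testes, against 19.2 and 16.5 FPKM in bam- testes. The genotypes did not overlap, and the log2 difference was 0.36 (SE 0.12, limma adjusted p = 0.701). mRpS18B (2L, 20096431 to 20098065) had 37.7 and 39.7 FPKM in Phf7-bam- testes, against 30.6 and 30.6 FPKM in bam- testes, again without overlap, with a log2 difference of 0.33 (SE 0.10, limma adjusted p = 0.671). Animals carry 3 relatives of the bacterial protein S18. mRpS18C had 49.8 and 46.2 FPKM in Phf7-bam- testes and 38.1 and 41.9 FPKM in bam- testes, a difference of 0.26 (SE 0.11). mRpS18A had 36.6 and 39.1 FPKM in Phf7-bam- testes and 42.3 and 34.8 FPKM in bam- testes. The B and C genes thus shared a direction without overlap between genotypes, and the A gene overlapped, with a difference of -0.018 (SE 0.14).

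Among the proteins around the catalytic and factor-binding sites of the large subunit the genotypes mostly overlapped. mRpL10, which anchors the L12 stalk, had 40.3 and 50.7 FPKM in Phf7-bam- testes and 43.2 and 46.0 FPKM in bam- testes. mRpL11, at the base of the stalk, had 19.1 and 25.7 FPKM in Phf7-bam- testes and 26.9 and 17.3 FPKM in bam- testes. Each genotype of mRpL11 spanned a wider range than the distance between their means, and the same held for mRpL10. The median difference of the 3 stalk genes was 0.034, with 0 called. Near the peptidyl transferase centre, where peptide bonds are formed, mRpL2, mRpL3, mRpL16 and mRpL27 had a median difference of 0.032, from -0.038 to 0.19, with 0 of 4 called. Along the exit tunnel for the growing chain, mRpL4, mRpL17, mRpL22, mRpL23, mRpL24 and mRpL45 had a median of 0.048, with 3 of 6 positive and 0 called. mRpL45 is known from mammals as a contact to the inner membrane. mRpL4 had 23.0 and 27.7 FPKM in Phf7-bam- testes and 23.2 and 20.8 FPKM in bam- testes, and mRpL23 had 34.8 and 43.8 FPKM in Phf7-bam- testes and 44.0 and 39.3 FPKM in bam- testes. In both the genotypes overlapped.

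Among the small subunit genes 0 were called as well. In the head, which contacts the transfer RNAs, mRpS7, mRpS9, mRpS10, mRpS14 and mRpS29 had a median difference of -0.0028, with 2 of 5 positive and 0 called. mRpS7 had 56.7 and 54.4 FPKM in Phf7-bam- testes, against 61.2 and 57.3 FPKM in bam- testes, without overlap and with a difference of -0.090 (SE 0.10). mRpS29, the GTP-binding protein called DAP3 in mammals, had 43.6 and 52.7 FPKM in Phf7-bam- testes and 48.2 and 44.2 FPKM in bam- testes, and overlapped. On the platform, mRpS6, mRpS11, mRpS18C and mRpS21 had a median of 0.063, with 3 of 4 positive and 0 called. mRpS11 had 32.4 and 40.7 FPKM in Phf7-bam- testes and 34.6 and 36.3 FPKM in bam- testes. mRpS2 had 27.0 and 31.2 FPKM in Phf7-bam- testes and 30.8 and 26.8 FPKM in bam- testes. Neither gene separated the genotypes. mRpS30 had 29.7 and 31.4 FPKM in Phf7-bam- testes and 30.6 and 29.1 FPKM in bam- testes, an overlap within a range of a few FPKM. In mammals the proteins named S18A and S30 have been placed in the large subunit, so the split by symbol is a split by name.

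By subunit, 33 of 45 tested large subunit genes and 20 of 26 small subunit genes had a positive difference, with medians of 0.054 and 0.065 and median levels of 37.7 and 40.3 FPKM. Genes whose number lies in the range of the bacterial ribosome, up to 36 in the large and up to 21 in the small subunit, were positive in 26 of 41 cases, with a median of 0.034. Genes with higher numbers, a class set by number and not by homology, were positive in 27 of 30 cases, with a median of 0.089. These counts were 21 and 24 with equal medians, and 11 and 12 without Phf7-bam- replicate 2. None of the 30 had an unadjusted p under 0.05, and the difference between these classes was not tested.

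The largest differences toward Phf7-bam- beside those given were in mRpL42 and mRpS28, both from the class with higher numbers. mRpL42 had 58.5 and 74.9 FPKM in Phf7-bam- testes, against 52.7 and 51.4 FPKM in bam- testes, a log2 difference of 0.34 (SE 0.15, limma adjusted p = 0.878). mRpS28 had 18.2 and 20.4 FPKM in Phf7-bam- testes, against 17.2 and 13.5 FPKM in bam- testes, a difference of 0.32 (SE 0.15, limma adjusted p = 0.906). In both the Phf7-bam- libraries lay above the bam- libraries. The largest difference toward bam- was in mRpL54, also of that class, at -0.28 (SE 0.12, limma adjusted p = 0.848). It had 13.2 and 15.0 FPKM in Phf7-bam- testes, against 16.4 and 18.2 FPKM in bam- testes. mRpL35, shared with bacteria, had 53.1 and 63.7 FPKM in Phf7-bam- testes, against 67.0 and 67.1 FPKM in bam- testes, or -0.20 (SE 0.13, limma adjusted p = 0.906). In both the Phf7-bam- libraries lay below the bam- libraries.

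The members listed at 0 and mRpL33 call for their own account. mRpL9 (dm3, 3R, 11156462 to 11157314), the homologue of a bacterial protein that reaches out from the large subunit, was listed at 0 in Phf7-bam- replicate 1, at 67.7 FPKM in Phf7-bam- replicate 2 and at 0 in both bam- libraries. Its single value above 0 lies well inside the range of the other members, and no fold change is given against listed zeros (limma adjusted p = 0.906). The midpoint of the interval listed beside these zeros was 0.0465 to 0.0570 FPKM, against 52.8 FPKM in Phf7-bam- replicate 2. The locus overlaps by 9 bp, on the opposite strand, that of Fkbp39, an FK506-binding protein, which had 314 and 306 FPKM in Phf7-bam- testes and 325 and 341 FPKM in bam- testes. mRpL34 (2R, 11986498 to 11986842), the shortest locus among the members at 345 bp, was listed at 0 in all 4 libraries, and its locus overlaps that of CG8414 by 36 bp. A listed 0 in at least 1 library occurred in 111 of the 5811 tested genes with a mean of at least 10 FPKM, and in 22 of them it occurred in 3 libraries. Whether these zeros stand for absent RNA was not tested.

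mRpL33 (dm3, X, 4215797 to 4216234; 438 bp), a short protein of the large subunit, had 31.1 and 65.3 FPKM in Phf7-bam- testes and 34.5 and 68.2 FPKM in bam- testes. The replicate 2 library of each genotype was about 2 times its replicate 1 library, while the genotypes differed by only -0.10 (SE 0.48). Its replicate log2 differences were 1.04 in Phf7-bam- and 0.96 in bam-, the largest of any member above 0 in all libraries in both genotypes. The labels give no shared day or batch for libraries of the same number.

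The replicates of a genotype differed in a shared direction across the members. In Phf7-bam- testes replicate 2 exceeded replicate 1 in 68 of 71 members, or 95.8%, with a median log2 difference of 0.22, where 83.6% of all tested genes did so with a median of 0.18. In bam- testes replicate 2 exceeded replicate 1 in 23 members, or 32.4%, with a median of -0.037, against 50.5% and 0.0019 over all tested genes. The typical replicate gap in size was 0.22 in Phf7-bam- and 0.081 in bam- testes, and the median difference between genotypes in size was 0.079. The exceptions in Phf7-bam- testes were mRpL41, mRpS7 and mRpS18C, by at most 0.11. Among members above 0 in all libraries the widest replicate gaps after mRpL33 were those of mRpS26, with 46.7 and 65.4 FPKM in Phf7-bam- testes and 54.0 and 52.5 FPKM in bam- testes, and of mRpL11 and mRpL49 in bam- testes. mRpL49 had 25.7 and 26.7 FPKM in Phf7-bam- testes and 29.5 and 21.5 FPKM in bam- testes. In both mRpS26 and mRpL49 the genotypes overlapped.

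Other properties also differed between the libraries of a genotype. The library of each genotype with the higher accessory gland markers, Phf7-bam- replicate 1 and bam- replicate 2, was the one in which most members were lower. Estimated relative depth, with bam- replicate 1 set to 1, was 1.15 and 1.41 in the Phf7-bam- libraries and 1.23 in bam- replicate 2. The 4 muscle markers Mhc, up, Act57B and Mlc2 summed to 384 and 443 FPKM in Phf7-bam- testes and to 316 and 435 FPKM in bam- testes, and so were higher in replicate 2 of both. The part of these properties in the members' values was not tested.

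**Figure D3:**
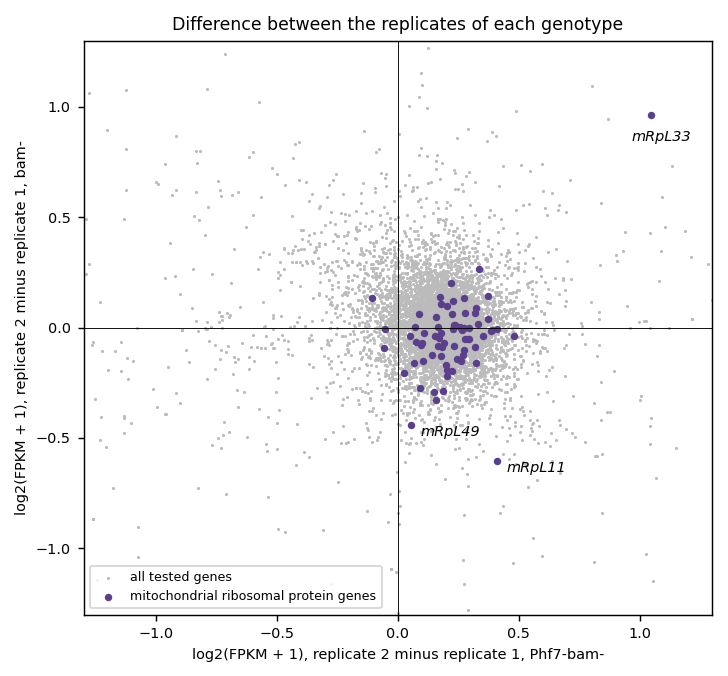
Log2 difference between replicate 2 and replicate 1 in Phf7-bam- testes (horizontal) and in bam- testes (vertical), on the log2(FPKM + 1) scale, for 71 mitochondrial ribosomal protein genes in purple over all tested genes in grey. The members lie right of 0 in 68 cases and below 0 in most, with mRpL33 far up on the right; the axes end at 1.3, beyond which lie 549 of all tested genes, among them the member mRpL9.

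In the rest of the mitochondrial machinery limma called 0 genes in each of the 6 companion lists that had values, with or without robust moderation, and 2 had an unadjusted p under 0.05. The 3 mitochondrial ribosomal proteins with other symbols in the tables are tko, bonsai and Rlc1, now called mRpL47. tko, the S12 protein of the decoding site and the gene of a classic bang-sensitive mutant, had 28.5 and 34.7 FPKM in Phf7-bam- testes, against 26.5 and 26.1 FPKM in bam- testes, or 0.25 (SE 0.13). bonsai, the S15 protein, had 65.4 and 74.7 FPKM in Phf7-bam- testes and 72.5 and 66.8 FPKM in bam- testes. mRpL47 had 31.2 and 32.0 FPKM in Phf7-bam- testes, against 36.1 and 34.6 FPKM in bam- testes. Their levels fall inside the range of the members, and their directions were mixed.

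Of 9 mitochondrial translation factors 5 had a positive difference, with a median of 0.046. The elongation factor mEFTu1, which brings transfer RNAs to the ribosome, was the highest, with 87.9 and 102.9 FPKM in Phf7-bam- testes and 88.0 and 85.5 FPKM in bam- testes. mEFG1, the translocase, had 8.45 and 8.85 FPKM in Phf7-bam- testes, against 10.9 and 10.8 FPKM in bam- testes, or -0.30 (limma adjusted p = 0.771, unadjusted p under 0.05), and mEFTu2 differed by 0.32. The factors other than mEFTu1 and mEFTs thus lay below most members in level.

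Of the 18 mitochondrial tRNA synthetases written down, 14 had values and 13 were tested, 3 of them positive, with a median of -0.034. SerRS-m, which charges serine, had 15.2 and 17.8 FPKM in Phf7-bam- testes, against 11.3 and 12.4 FPKM in bam- testes, or 0.44 (limma adjusted p = 0.642, unadjusted p under 0.05). AspRS-m was the highest, with 36.2 and 43.2 FPKM in Phf7-bam- testes and 40.7 and 39.3 FPKM in bam- testes, and GluRS-m was listed at 0 in all 4 libraries. The 12 genes of mitochondrial DNA replication and expression had a median of -0.031 with 5 positive. mtSSB, which coats single-stranded DNA, led them with 123 and 143 FPKM in Phf7-bam- testes and 125 and 135 FPKM in bam- testes.

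Most subunits of oxidative phosphorylation that the nucleus encodes belong to complexes that also hold proteins made by these ribosomes. The list also includes SdhA, SdhB, SdhC and SdhD, whose complex holds no such protein. Of the 39 genes on the list 36 were positive, with a median of 0.11, 0 called and 0 with an unadjusted p under 0.05. The count was 35 with equal medians, 89.7% against 51.1% of all tested genes. It was 21 after quantile normalization, 53.8% against 43.9%. Without Phf7-bam- replicate 2 it was 16, 41.0% against 36.2%, and without Phf7-bam- replicate 1 it was 39, against 72.6% of all tested genes. Their median level, 175 FPKM, was above that of any member. ATPsynC, the ring subunit of ATP synthase, had 959 and 1134 FPKM in Phf7-bam- testes and 926 and 974 FPKM in bam- testes, and COX6B differed most, by 0.29 (limma adjusted p = 0.906). For the products of mitochondrial DNA itself, the ribosomal RNAs included, no value was found under the symbols sought, so they were not analysed here.

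Of 8 regulators of mitochondrial genes or of mitochondrial number, 5 were positive and 0 called. Myc, a driver of ribosome production and growth, had 105 and 122 FPKM in Phf7-bam- testes and 108 and 95.9 FPKM in bam- testes. clu, which keeps mitochondria dispersed in the cell, had 57.7 and 59.8 FPKM in Phf7-bam- testes, against 53.2 and 51.4 FPKM in bam- testes. srl, the fly homologue of PGC-1, had 79.9 and 93.2 FPKM in Phf7-bam- testes and 97.6 and 90.5 FPKM in bam- testes. None of these differences passed the test.

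The ribosome of the cytoplasm offers a comparison of size. Its 83 tested protein genes had a median level of 1409 FPKM, far above the 38.2 FPKM of the mitochondrial set. Their differences had a median of 0.068, with 72 positive, 0 called and 1 at an unadjusted p under 0.05. Without Phf7-bam- replicate 2 the positive ones were 26, or 31.3%, against 36.2% of all tested genes. The replicates parted as they did in the mitochondrial set: replicate 2 exceeded replicate 1 in 82 of 83 in Phf7-bam- testes and in 20 of 83 in bam- testes. The middle 50% of differences spanned 0.149 in the mitochondrial and 0.0892 in the cytoplasmic set, against 0.227 in all tested genes.

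**Figure D4:**
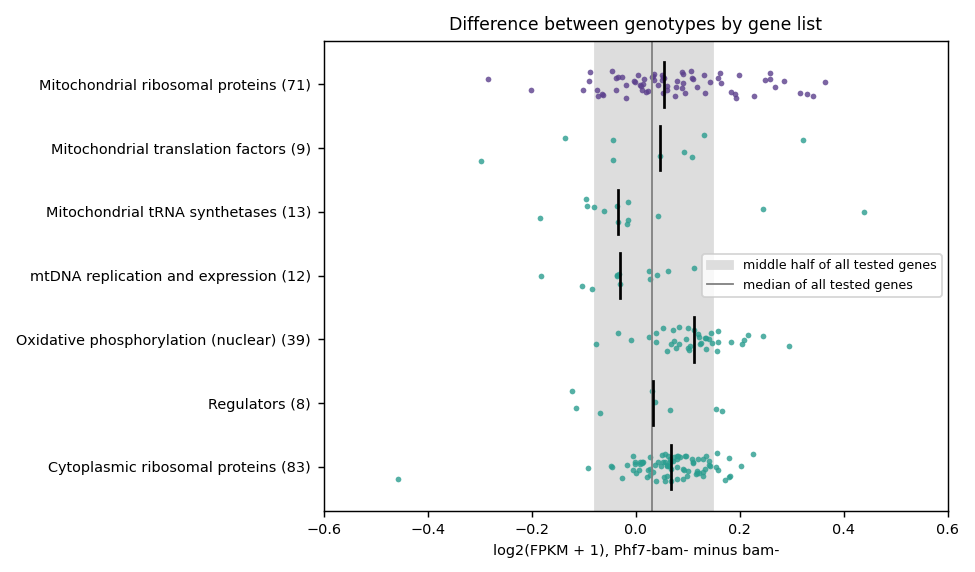
Log2 difference, Phf7-bam- minus bam-, of the tested genes of each list (number in brackets), with a black bar at the list's median; the grey band holds the middle 50% of all tested genes and the grey line is their median. With all 4 libraries the mitochondrial ribosomal proteins have a median of 0.054 inside the band (-0.060 without Phf7-bam- replicate 2), oxidative phosphorylation genes one of 0.11, and tRNA synthetases one of -0.034; mRpL9 lies beyond the axis.

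In the genome the members are scattered. By the dm3 loci of the tables, 12 lie on 2L, 12 on 2R, 17 on 3L, 20 on 3R, 11 on X and 0 on chromosome 4. The X holds 15.3% of the members and 15.7% of protein-coding genes. The nearest pair, mRpL3 and mRpS30 on X, is 23389 bp apart. The 11 X-linked members had a median difference of 0.043, with 7 positive, and the 60 tested autosomal members one of 0.067, with 46 positive.

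Members often lie close to another gene. Of the 72 loci 38 overlap another locus, or 52.8%, against 33.8% of all protein-coding genes and 35.6% of the tested ones. For 37 of them every overlapping locus is on the opposite strand, and for 1 the strand of the partner is unknown. The longest overlap of each member has a median of 55.5 bp and runs from 3 to 9814 bp, with 31 of the 38 under 100 bp. In 51 of 72, or 70.8%, another gene starts within 1 kb on the opposite strand, head to head and without overlap, against 30.8% of protein-coding genes and 41.4% of the tested ones. The gaps run from 43 to 799 bp with a median of 303. Such a pair shares the stretch in which both promoters lie.

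Some head-to-head partners are mitochondrial themselves. mRpL55 lies 101 bp from ATPsynD, a subunit of ATP synthase with 445 and 516 FPKM in Phf7-bam- testes and 434 and 434 FPKM in bam- testes. mRpL35 lies 63 bp from Mitofilin, which shapes the cristae, with 26.9 and 32.5 FPKM in Phf7-bam- testes and 31.2 and 30.8 FPKM in bam- testes. mRpL11 lies 176 bp from HtrA2, a protease of the mitochondrial intermembrane space. mRpS7 in turn lies 401 bp from Cdk1, the kinase of entry into mitosis, with 79.1 and 89.4 FPKM in Phf7-bam- testes and 81.6 and 75.6 FPKM in bam- testes. These pairs were chosen after their names and values were seen. Over all partners, 49 were tested, 24 had a positive difference, and limma called 0, with 0 at an unadjusted p under 0.05.

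The scale of a member's level depended on which deposited value was read. Beside each FPKM the authors' tables list a lower and an upper bound, and for many members the FPKM lay above its own upper bound. This held for 39 and 40 of 71 members in the Phf7-bam- libraries and for 39 in each bam- library. Over all tested genes the FPKM lay outside its bounds in 23.7% and 27.6% in the Phf7-bam- libraries and in 21.4% and 24.4% in the bam- libraries. Among tested loci under 1500 bp it did so in 48.6% and 51.7% and in 44.4% and 48.1%.

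The ratio of FPKM to the midpoint of its bounds was a property of the gene. As a mean over the libraries it ranged from 0.998 to 2.49 over 70 members, with the highest at mRpL33. In 60 of them it varied between libraries by under 2%, and it varied most in mRpL36, by a factor of 1.05. It was within 1% of 1 in 29 of the 36 members whose locus overlaps another, or 80.6%, and in 2 of the 34 that overlap none, mRpL13 and mRpS5, or 5.88%. Among tested protein-coding genes under 1500 bp the shares were 56.0% of 750 overlapping and 9.58% of 1399 others. Differences between genotypes are ratios within a gene, so this factor largely drops out of them. In mRpL21 it did not drop out fully: the ratio was 1.317 and 1.319 in Phf7-bam- testes and 1.270 and 1.252 in bam- testes. The log2 difference of mRpL21 was 0.30 by midpoint, against 0.36 by FPKM. The midpoints gave 0 members called, 2 at an unadjusted p under 0.05 and a median difference of 0.052.

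The order of the members by level did depend on it. By midpoint mRpL33 took rank 61 of 72, against rank 14 by FPKM, and its values became 12.7 and 26.3 in Phf7-bam- testes and 13.9 and 27.0 in bam- testes. mRpS14 was ranked 55 by midpoint and 25 by FPKM, mRpL27 48 and 22, and mRpL55 9 and 3. mRpL13, mRpL50 and mRpL12 took ranks 1 to 3 by midpoint. Across 70 members the measures had a Spearman rho of 0.856. The measures differed most for short members that overlap no other locus, and which measure is closer to RNA abundance was not tested.

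**Figure D5:**
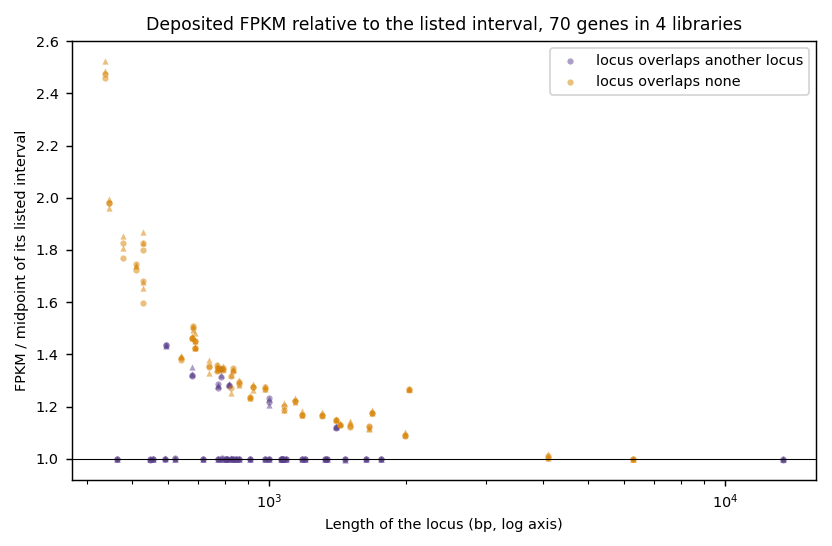
Ratio of the deposited FPKM to the midpoint of its listed bounds against the length of the locus (log axis), for 70 mitochondrial ribosomal protein genes in each of the 4 libraries (circles replicate 1, triangles replicate 2); purple marks loci that overlap another locus. Most purple points sit at 1, while the orange points rise to 2.525 toward short loci.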

How the data were processed

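Messenger RNA of testes was measured by sequencing in 4 libraries, 2 labelled Phf7-bam- and 2 labelled bam-. Per the labels' protocols, oligo-dT beads were used for selection and a directional kit for library construction. TopHat2, Cufflinks and Cuffdiff and the build dm3 are named in the submitters' processing notes, without versions or settings. The annotation, like the use of strand in counting, is not given in the sources used here. For each library the authors deposited a table of the FPKM of 14664 genes and a lower and an upper bound for each, per the file headers. FPKM values are no counts, hence count tests were left out and absolute depth is unknown. Relative depth was estimated from the spacing of values up to 0.15 FPKM, with the most frequent ratio holding in 21.4% to 22.8% of low genes.

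Genes with a mean of at least 1 FPKM were fitted as log2(FPKM + 1) with limma 3.58.1 in R 4.3.3, with a trend on the mean and no block, over all 4 libraries (2 residual degrees of freedom, 2.64 prior). Differences on this scale understate those of low genes. Libraries of a genotype are biological replicates by the series description, and p-values refer to their spread. The fit was tested on simulated data. Tables were joined in Python 3.11.15 with pandas 2.3.3. Of the members 69 were found in an Ensembl annotation by identifier and 3 by symbol; it is of a later build, so it gave only strand, gene class and current symbols, and coordinates are those of the tables, counted from 1. Loci that overlap on opposite strands have uncertain values if reads were counted without strand. Protein and promoter sequences were not analysed here.

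The members, the 7 companion lists (85 of 104 written genes had values), role groups and tests were chosen with earlier results of these data known. Genes are named with values in every library if they had an unadjusted p under 0.05, were among the 5 largest positive or negative differences, the 5 highest or 5 lowest levels or the 3 widest replicate gaps of a genotype, were listed at 0, or had a position known to be special. Of each companion list the highest gene and those with the 2 smallest p-values were eligible. mRpS16, the relatives of a named gene, mRpL47, Phf7, the markers and the partner genes fall outside this rule and were chosen with their values known. Alternatives were pseudocounts of 0.1 and 0.5, no filter or a mean of at least 5 FPKM, equal medians, quantile normalization, robust moderation, moderation without trend, a replicate block and each library left out. Added after seeing the data were genes above 0 in all 4 libraries, the midpoint of the bounds and a crossed block.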

Additional observations from a re-analysis of the deposited data

How the results depend on the processing

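Under the 16 alternatives tried, limma called 0 members higher and 0 lower each time, and the lowest adjusted p of a member was 0.0757, of mRpL9 without Phf7-bam- replicate 1, where adjusted p-values of mRpL9 over the alternatives ran from 0.0757 to 1. Members with an unadjusted p under 0.05 numbered 4 without a filter (5.56% of members, against 7.17% of all tested genes) and 9 with equal medians (12.7% against 13.4%). They numbered 7 after quantile normalization (9.86% against 12.8%) and 4 with robust moderation (5.63% against 9.16%). The number of all tested genes called, 21, became 0 without a filter, 37 at a mean of at least 5 FPKM, 307 with robust moderation, 130 among genes above 0 in all 4 libraries and 52 with the midpoint of the bounds. With a library left out it ranged from 0, without either Phf7-bam- library, to 101, without bam- replicate 2, and was 76 without bam- replicate 1; the genotype with 1 library was assumed to vary like the other. The members' median difference ranged from -0.0603 to 0.1817 with a library left out. With the replicate block 18 genes were called in all, 0 members had an unadjusted p under 0.05, and the median was 0.0536. Replicate numbers share no stated day or litter, and the correlation of replicate gaps between genotypes was -0.367 over 8965 genes and 0.13 over the 71 members; the crossed replicate block, which pairs unlike numbers, called 133 genes and 0 members.

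Of 27 named and tested members, 372 values kept their direction and side of the threshold, for mRpL9 the side alone, and 32, in 15 genes, changed sign. With equal medians these were mRpL10 (-0.0066), mRpL55 (-0.0226) and mRpS2 (-0.0146), after quantile normalization mRpL10 (-0.0155), mRpL13 (-0.0180), mRpL55 (-0.0616) and mRpS2 (-0.0230), and with midpoints mRpL10 (-0.0014) and mRpL55 (-0.0038). The cause was not tested. With a library left out the log2 differences ranged from -0.14 to 0.18 in mRpL10, from -0.27 to 0.34 in mRpL11, from -0.25 to 0.0745 in mRpL23, from -0.62 to 0.42 in mRpL33, from -0.15 to 0.22 in mRpL43, from -0.17 to 0.27 in mRpL49, from -0.0298 to 0.25 in mRpL50, from -0.14 to 0.15 in mRpL55, from -0.12 to 0.20 in mRpS11, from -0.16 to 0.12 in mRpS18A, from -0.0898 to 0.11 in mRpS2, from -0.19 to 0.29 in mRpS26, from -0.0812 to 0.19 in mRpS29 and from -0.0057 to 0.0695 in mRpS30. Depth is unknown, and with 2 libraries per genotype the 95% interval of a typical member reached 0.35 to either side on the log2 scale.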

Other observations

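Several genes of other kinds stood near the members in level or moved without passing the test. nos, which maintains germline stem cells, had 171 and 205 FPKM in Phf7-bam- testes, against 136 and 129 FPKM in bam- testes, a log2 difference of 0.49 (limma adjusted p = 0.610, unadjusted p under 0.05), without overlap between the genotypes. aub had 114 and 129 FPKM in Phf7-bam- testes, against 108 and 105 FPKM in bam- testes, and piwi had 85.1 and 109 FPKM in Phf7-bam- testes, against 78.6 and 80.1 FPKM in bam- testes; both are genes of the piRNA pathway (limma adjusted p = 0.906 each). bam had 27.6 and 32.6 FPKM in Phf7-bam- testes and 28.6 and 26.5 FPKM in bam- testes, so its transcript was listed in each library. Lsp2, a larval serum protein of the fat body, had 18.0 and 19.7 FPKM in Phf7-bam- testes, against 2.38 and 7.12 FPKM in bam- testes (limma adjusted p = 0.439, unadjusted p under 0.05). Of the other fat body markers, Fbp1 overlapped between the genotypes, and Yp1 and Yp2 were below 1 FPKM in every library, at 0.115 and 0.0703 FPKM (Yp1) and 0.494 and 0.475 FPKM (Yp2) in Phf7-bam- testes, against 0.266 and 0.163 FPKM and 0.706 and 0.576 FPKM in bam- testes. The gut amylase gene Amy-p had 104 and 135 FPKM in Phf7-bam- testes, against 86.4 and 65.3 FPKM in bam- testes (limma adjusted p = 0.701, unadjusted p under 0.05), and passed with robust moderation of the variances. The other gut markers, Jon65Aiv and Jon99Ciii, overlapped between the genotypes. Jon65Aiv had 3.25 and 0.0450 FPKM in Phf7-bam- testes and 1.15 and 0 FPKM in bam- testes. Jon99Ciii had 1.46 and 0.236 FPKM in Phf7-bam- testes and 0.466 and 0.0985 FPKM in bam- testes. The cyst cell genes tj, zfh1, eya and Egfr summed to 43.9 and 50.01 FPKM in Phf7-bam- testes and to 43.6 and 45.5 FPKM in bam- testes.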
